A study of Mus musculus with 8 samples.

Results

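The 10 genes described here encode parts of MHC antigen presentation and of complement: the MHC class I light chain B2m, the class I heavy chains H2-K1 and H2-D1, the peptide transporter subunits Tap1 and Tap2, the class II invariant chain Cd74, the class II chains H2-Aa and H2-Ab1, and the complement proteins C3 and C4b. They were taken by gene symbol from a table of 34299 genes, and each matched 1 gene. The study sequenced whole mouse brain RNA from 3 wild-type fetuses (WT) and 3 Cav1 knockout fetuses (KO), both at gestation day 15, and from 2 Cav1 knockout brains at week 70. Cav1 encodes caveolin 1, the scaffold protein of the plasma membrane invaginations called caveolae, and by the labels all 5 knockout libraries carry the same genotype, Cav1 KO, with no cell-type restriction named. The labels call the fetal replicates biological; they give no strain, sex, litter or sequencing batch, and whether any brain was pooled is not stated. Wild-type brain of the older age, which the series' text places in an earlier study, was not analysed here. The week 70 brains were therefore compared with the fetal brains of the same genotype, and with fetal wild type as a second reference in which age and genotype cannot be told apart.

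MHC class I molecules display peptides from inside the cell to CD8 T cells and natural killer cells. The peptides are cut by the proteasome, carried into the endoplasmic reticulum by the Tap1-Tap2 transporter and loaded onto a heavy chain paired with B2m. Class II molecules display peptides taken up from outside to CD4 T cells; their alpha and beta chains (here H2-Aa and H2-Ab1) assemble with Cd74, which is later removed by proteases. Complement is a cascade of plasma and tissue proteins in which C1q starts the classical branch, C4 and C2 carry it on, and C3 is cleaved to tag surfaces. In brain, class I, C1q and C3 are known for roles in synapse remodelling, and the main cells with class II are microglia, border macrophages and blood leukocytes. Interferon signalling is the best-known inducer of both classes.

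By the GENCODE M21 annotation of GRCm38, 8 of the 10 genes lie on chromosome 17. H2-K1 (chr17:33996017-34000347), Tap1 (chr17:34187553-34197225), Tap2 (chr17:34203527-34216321), H2-Ab1 (chr17:34257689-34269419), H2-Aa (chr17:34282744-34287823), C4b (chr17:34728380-34743882) and H2-D1 (chr17:35262730-35267499) are within the MHC region, and C3 (chr17:57203970-57228136) lies further along the chromosome. B2m is at chr2:122147686-122153083 and Cd74 lies on a different autosome. All 10 are annotated as protein coding, and the counts are over whole genes. The count table holds no coordinates and the submitters' processing notes list both GRCm38 and GRCm39, so these positions are the annotation's. B2m is the shortest of the set, with 860 bp of merged exons and a transcript GC content of 41.2%, while C4b has 5695 bp and Tap2 the highest GC content, 57.9%.

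The proximal promoters are shown because class I genes and B2m are known to share a regulatory layout. It holds an interferon element, an NF-kB element and an SXY module that ends in a CCAAT-type Y box. Whether the layout bears on the levels in these data was not tested. RefSeq (GRCm38.p6) held promoter sequence for 6 of the 10 genes (B2m, H2-K1, H2-D1, Tap1, H2-Aa and C3). The 180 bases before the RefSeq start are printed 5′ to 3′ on the gene's strand. That start can differ from the GENCODE bounds given above, and the H2-D1 stretch lies inside them. Capitals mark every match, on either strand, to 4 motifs: an interferon regulatory factor core (AANNGAAA), the NF-kB consensus, the X2 or cyclic AMP element core (TGACG) and the CCAAT box (CCAAT). The stretches are chr2:122147507-122147686 (+ strand), chr17:34000348-34000527 (- strand), chr17:35262914-35263093 (+ strand), chr17:34187376-34187555 (+ strand), chr17:34287824-34288003 (- strand) and chr17:57228137-57228316 (- strand).
B2m: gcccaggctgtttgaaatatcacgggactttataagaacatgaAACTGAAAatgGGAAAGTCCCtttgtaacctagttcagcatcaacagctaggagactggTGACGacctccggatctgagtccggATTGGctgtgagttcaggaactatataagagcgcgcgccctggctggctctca
H2-K1: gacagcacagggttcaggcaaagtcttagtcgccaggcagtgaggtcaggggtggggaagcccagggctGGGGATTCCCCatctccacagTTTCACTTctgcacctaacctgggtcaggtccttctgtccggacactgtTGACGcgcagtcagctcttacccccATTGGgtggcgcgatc
H2-D1: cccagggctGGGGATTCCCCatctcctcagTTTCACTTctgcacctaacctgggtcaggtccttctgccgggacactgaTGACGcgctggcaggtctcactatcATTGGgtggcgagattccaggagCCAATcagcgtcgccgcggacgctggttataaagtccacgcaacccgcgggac
Tap1: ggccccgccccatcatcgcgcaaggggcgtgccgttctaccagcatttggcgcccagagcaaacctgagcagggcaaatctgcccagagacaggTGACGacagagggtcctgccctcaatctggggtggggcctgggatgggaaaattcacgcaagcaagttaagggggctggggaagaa
H2-Aa: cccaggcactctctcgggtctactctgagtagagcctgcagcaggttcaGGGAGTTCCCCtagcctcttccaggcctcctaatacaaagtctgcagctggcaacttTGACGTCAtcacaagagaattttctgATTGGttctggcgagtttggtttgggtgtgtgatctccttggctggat
C3: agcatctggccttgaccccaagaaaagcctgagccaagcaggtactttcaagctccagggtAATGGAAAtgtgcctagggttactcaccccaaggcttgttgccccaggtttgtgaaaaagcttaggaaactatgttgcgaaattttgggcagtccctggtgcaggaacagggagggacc

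B2m, H2-K1 and H2-D1 each held all 4 motifs, a combination found in 13 of the 32851 RefSeq mouse promoter entries (0.04%). Those 13 include the entries of these genes. The motifs were chosen for the layout already known in them, so the low share gives no support of its own. In each of those 3 the TGACG began 25 bases before the first CCAAT match. The interferon core preceded the NF-kB match in B2m (positions -137 and -126 from the start) and followed it in H2-D1 (-150 against -171) and H2-K1 (-90 against -111). H2-Aa held the NF-kB consensus, overlapping TGACG matches on both strands and a CCAAT box. Tap1 held a single TGACG, and C3 a single interferon core. Over all promoters the interferon core was found in 15.1%, the NF-kB consensus in 5.5%, TGACG in 14.8% and CCAAT in 27.5%. H2-K1 had another RefSeq start nearby, not printed, from which the same interferon core and NF-kB matches lay at -104 and -125 and a further CCAAT match came into the window, making 2. A match is a match of letters and says nothing about binding.

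Libraries held between 14110031 and 20833397 counted reads. Levels are given as CPM, counts scaled to library size, with sizes adjusted by the trimmed mean of M values over the 8 libraries, and differences come from edgeR's quasi-likelihood test fitted to all genes of the libraries compared, with a Benjamini-Hochberg adjusted p under 0.05 called a change. Reads of Cav1 numbered 367, 218 and 329 in the WT libraries, 0, 3 and 1 in the fetal KO libraries and 1 and 5 in the week 70 ones, so the labels of genotype hold; fetal KO was at least 85.3-fold lower, taking 3 counts per library as the lowest count that can be told from 0. Neuron and astrocyte markers were present in every library (summed CPM of at least 3410 and 213), as the whole-brain label requires. Most genes passed the test: 62.6% at day 15 (30.1% higher and 32.5% lower in KO), 82% between the ages within KO (37.6% higher and 44.4% lower at week 70) and 78.6% between week 70 KO and fetal WT. The split at day 15 moved to 39.8% higher and 25.7% lower under upper-quartile scaling, which raised the median log2 difference of all genes from 0.03 to 0.20; between the ages the same scaling lowered that median from -0.19 to -0.44. The 2 week 70 libraries differed in choroid plexus markers (summed CPM 72.5 and 2400) and in Xist (7969 and 4 counts), and the WT libraries in fibroblast and meninges markers (325 to 4470). Xist had 54531 to 93272 counts in the 6 fetal libraries. Sex is not given by the labels, and its part in the differences between the ages was not tested. In bulk tissue, fewer cells of a type and less RNA per cell cannot be told apart, which holds for every value below.

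At week 70, all 10 genes were higher than in the fetal KO brain. The rise ran from 2.03-fold for C3 through 4.43-fold for Tap1, 6.69-fold for B2m and 7.07-fold for H2-D1 to between 18.0-fold and 29.3-fold for H2-K1, Cd74, H2-Aa, H2-Ab1 and Tap2. C4b, nearly absent from the fetal KO brain, was at least 374-fold higher. The median log2 difference was 4.24, also with C4b at its bound, against -0.19 over all 20000 genes tested, and the CPM of the 2 ages did not overlap for any of the 10, as for 87.9% of the genes tested. Tap2, H2-Aa, H2-Ab1 and C4b had 7 counts or fewer in every fetal KO library and entered the test through their week 70 counts alone. The filter thus set their direction, and the count of 10 gives no support of its own. Low-count genes of the lists below, among them H2-M3, Psmb9, H2-DMb1, C1ra, Itgam, Ifit3 and Igtp, also entered through week 70 alone. The list counts of rises at week 70 therefore give no support of their own either. At day 15 the picture was mixed: 7 of the 10 had enough counts to be tested, of which 5 passed, against 62.6% of all genes. B2m was higher in KO, H2-K1, Tap1, Tap2 and C3 were lower, and H2-D1 and Cd74 did not pass. Tap2 entered the day 15 test through its WT counts alone, so the filter set its direction there. None of the 7 passed with the length and GC correction, against 53.5% of all genes (edgeR, where 2 of the 7 had an unadjusted p under 0.05). DESeq2 called 2 of them, against 10744 of 33334 genes. With no filter on low counts 6 of 10 passed, against 11997 of 33334 genes. In one fit of all 8 libraries it was 7 of 10, against 11164 of 21263 genes. The fetal groups did not overlap in CPM for 3 of the 7 tested (B2m, Tap1 and Tap2), against 68.3% of the genes tested, nor for H2-Ab1 and C4b.

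**Figure D1:**
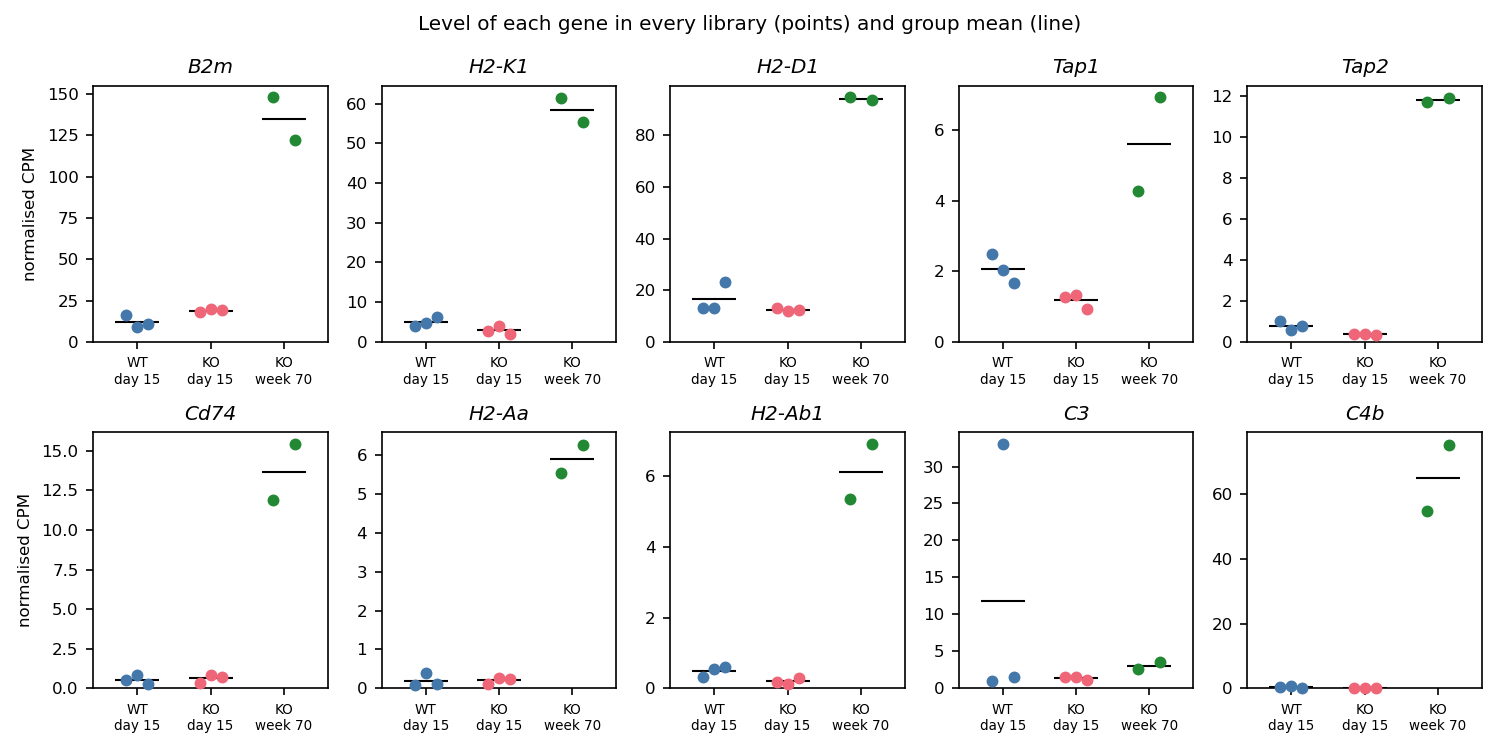
Normalised CPM of each of the 10 genes (y axes, linear and separate for each gene) in WT day 15 (3 libraries), KO day 15 (3) and KO week 70 (2); points are libraries and lines are group means. Week 70 is the highest group for every gene except C3, where 1 WT library reaches 33.0 CPM.

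B2m, the light chain that every classical class I molecule needs to reach the surface, was the most abundant of the 10 per kilobase in each group. WT libraries had 16.1, 8.98 and 10.9 CPM, KO libraries at day 15 had 17.8, 19.6 and 19.0, and the week 70 libraries had 148 and 122. The 3 groups did not overlap, in the order WT, fetal KO, week 70 KO. Fetal KO exceeded WT by 0.69 ± 0.18 (SE) on the log2 scale (1.61-fold, edgeR adjusted p = 0.006), which held with any 1 of the 6 libraries left out. After a correction for each gene's length and GC content the difference was -0.46 (edgeR adjusted p = 0.0625), so the direction turned and the call was lost. The week 70 rise was 2.74 ± 0.11 (edgeR adjusted p = 2.94e-09), and 5.32 with that correction (adjusted p = 5.82e-10).

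H2-K1 and H2-D1 encode the classical class I heavy chains, which hold the peptide. H2-K1 had 3.88, 4.84 and 6.13 CPM in WT, 2.85, 4.11 and 2.09 in fetal KO, and 61.5 and 55.3 at week 70. The fetal groups overlapped, since the highest KO library lay above the lowest WT library. Its difference at day 15, -0.67 ± 0.27 (1.59-fold lower in KO, edgeR adjusted p = 0.0476), was close to the threshold. That call was lost without WT replicate 2 or 3 (adjusted p = 0.0758 and 0.157), without KO replicate 1 or 3 (0.114 and 0.167), under upper-quartile scaling (0.122) and with the length and GC correction (-0.36, adjusted p = 0.263). By week 70 it had risen by 4.17 ± 0.20 over fetal KO (18.0-fold, edgeR adjusted p = 1.21e-08).

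H2-D1 had 13.1, 13 and 23.3 CPM in WT, 13.2, 11.8 and 12.3 in fetal KO, and 94.9 and 93.5 at week 70. WT replicate 3 stood above the other fetal libraries, which lay within 11.8 to 13.2. The fetal difference of -0.36 ± 0.21 did not pass (edgeR adjusted p = 0.148), though it did without WT replicate 1 (-0.53, adjusted p = 0.0351). The week 70 rise was 2.82 ± 0.09 (7.07-fold, edgeR adjusted p = 9.98e-10). H2-D1 exceeded H2-K1 in counts in every library, by 2.69 to 3.80 times in WT, 2.88 to 5.89 times in fetal KO and 1.54 and 1.69 times at week 70; the week 70 ratios lay below all 6 fetal ones. B2m counts per count of H2-D1 and H2-K1 together were 0.948, 0.503 and 0.369 in WT, 1.11, 1.23 and 1.32 in fetal KO, and 0.944 and 0.817 at week 70. Fetal KO had the highest B2m share of the 3 groups, without overlap; the ratio compares a short gene with longer ones and was not corrected for length or GC content.

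The heavy chains resemble each other and their neighbours: 14.3% of the 50-base windows of the longest H2-D1 transcript and 8.1% of those of H2-K1 recur exactly in transcripts of other genes, H2-Q1 and H2-D1 first. How reads that fit several genes were counted is not given in the sources used here, so part of these counts may belong to a relative. Of 17 other class I and class I-like genes in the table, 10 could be tested at day 15: H2-M5 was higher in KO, Fcgrt and H2-Q4 were lower, and 7 did not pass (median log2 difference 0.08, against 0.03 over all genes). Fcgrt, the neonatal Fc receptor, which pairs with B2m but binds IgG, fell by 1.61 ± 0.26 on the log2 scale in KO (edgeR adjusted p = 0.000343). Between the ages 13 could be tested; 9 rose at week 70, 2 fell and 2 did not pass (median 2.52). H2-T23, the mouse Qa-1 gene, whose product is read by natural killer cell receptors, went from 4.11 ± 1.23 CPM (SD, n = 3) to 32.4 ± 2.31 (SD, n = 2), and H2-T22 from 7.20 ± 0.215 to 36.1 ± 1.15.

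Cd1d1 and H2-M5 were the genes of the class I list that fell at week 70, while most of the others tested rose. Cd1d1, which presents lipids to natural killer T cells, had 29.4 ± 1.14 CPM in fetal KO and 0.837 ± 0.307 at week 70, a fall of 5.21 ± 0.21 on the log2 scale (edgeR adjusted p = 4.15e-09). H2-M5 went from 24.2 ± 0.346 to 1.04 ± 0.396 CPM, a fall of 4.62 ± 0.22 (edgeR adjusted p = 1.27e-08). H2-T24 did not pass (8.13 ± 1.07 against 7.45 ± 0.283 CPM, log2 difference -0.23, edgeR adjusted p = 0.295). Nor did H2-Q2 (log2 difference -0.24, edgeR adjusted p = 0.73).

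Tap1 and Tap2 form the transporter that moves cytosolic peptides to the class I loading site. Tap1 had 2.48, 2.05 and 1.66 CPM in WT, 1.27, 1.33 and 0.927 in fetal KO, and 4.28 and 6.96 at week 70. For Tap2 the values were 1.03, 0.599 and 0.754 in WT, 0.364, 0.389 and 0.348 in fetal KO, and 11.7 and 11.9 at week 70. Both subunits had the same order of groups without overlap, fetal KO lowest and week 70 highest. In WT Tap1 exceeded Tap2 per kilobase of exon (0.376 against 0.21 CPM per kb), and at week 70 Tap2 exceeded Tap1 (3.11 against 1.03).

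At day 15, Tap1 was 1.70-fold lower in KO (-0.76 ± 0.26, edgeR adjusted p = 0.027) and Tap2 2.09-fold lower (-1.06 ± 0.38, edgeR adjusted p = 0.0322). With the length and GC correction neither passed (Tap1 -0.15, adjusted p = 0.658; Tap2 -0.49, adjusted p = 0.308), nor under upper-quartile scaling (adjusted p = 0.07 and 0.0617) or in DESeq2 (adjusted p = 0.0957 and 0.177). The Tap1 call was lost without WT replicate 1 or 2 or KO replicate 3 (adjusted p = 0.098, 0.0572 and 0.0937). Tap2 had 22 counts or fewer in each fetal library and entered this test through its WT counts alone, so the filter set its direction. Its call was lost without KO replicate 1, 2 or 3 (adjusted p = 0.0768, 0.0671 and 0.0856). Without WT replicate 1 or 3, Tap2 no longer had enough counts to be tested. At week 70 Tap1 rose by 2.15 ± 0.33 (edgeR adjusted p = 0.000137) and Tap2 by 4.87 ± 0.27 (edgeR adjusted p = 4.61e-08) over fetal KO; corrected, these were 1.38 and 4.03. Tap1 shares 212 bp of exon with Psmb9 on the opposite strand, and Tap2 533 bp (14.1% of its exons) with Gm15821. Whether counting used strand is not given in the sources used here, so reads of such partners cannot be told apart.

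The other genes that cut, trim and load class I peptides gave 1 higher, 5 lower and 4 not called of 10 tested at day 15 (median -0.44). Tapbp, the bridge between the transporter and the heavy chain, fell by 1.28 ± 0.13 on the log2 scale in fetal KO (edgeR adjusted p = 7.71e-06; -0.69 corrected). Calr, the chaperone calreticulin, fell by 1.02 ± 0.06 (edgeR adjusted p = 3.07e-07), and Erap1, which trims peptides in the endoplasmic reticulum, fell by 0.72 ± 0.18 (edgeR adjusted p = 0.00486). At week 70, 10 of 12 rose, 1 fell and 1 did not pass (median 1.92). Among them Erap1 rose by 2.53 ± 0.21, Tapbp by 2.13 ± 0.15 and its relative Tapbpl by 2.07 ± 0.22, with edgeR adjusted p of 1.18e-06, 2.15e-07 and 8.29e-06.

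Class II genes were close to the detection floor in all 6 fetal brains. Cd74, the invariant chain, was counted 11, 17 and 5 times in WT and 6, 15 and 12 in fetal KO, against 181 and 224 at week 70. H2-Aa, the alpha chain, was counted 2, 8 and 2 times in WT, 2, 5 and 4 in fetal KO, and 84 and 91 at week 70. H2-Ab1, the beta chain, was counted 7, 11 and 12 times in WT, 3, 2 and 5 in fetal KO, and 81 and 100 at week 70. The fetal groups overlapped for Cd74 and H2-Aa; for H2-Ab1 every fetal KO library lay below every WT library in CPM (0.111 to 0.290 against 0.327 to 0.603).

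Of the 3, Cd74 alone could be tested at day 15, and its difference of 0.28 ± 0.49 on the log2 scale did not pass (edgeR adjusted p = 0.643); without WT replicate 3 it was -0.067. With no filter on low counts, H2-Ab1 gave -1.37 (edgeR adjusted p = 0.0836) and H2-Aa 0.05 (edgeR adjusted p = 0.963); one fit of all 8 libraries gave H2-Ab1 -1.31 (edgeR adjusted p = 0.035). A difference in class II between the fetal groups was thus not detectable for Cd74 and H2-Aa at this depth, and for H2-Ab1 it depended on the fit. Over fetal KO, week 70 was higher by 4.31 ± 0.31 for Cd74, 4.65 ± 0.39 for H2-Aa and 4.83 ± 0.41 for H2-Ab1, with edgeR adjusted p of 3.15e-07, 1.12e-06 and 1.25e-06. The summed CPM of the 3 genes was 0.667 to 1.22 in fetal KO and 22.8 and 28.6 at week 70.

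Other genes of the class II pathway were uneven. At day 15, 2 of 8 tested were higher in KO, 2 lower and 4 not called; without WT replicate 1, and likewise without WT replicate 2, 1 of 9 was higher and 1 lower. Lgmn, a lysosomal protease, fell by 1.09 ± 0.08 on the log2 scale in fetal KO (edgeR adjusted p = 1.16e-06), and Ifi30, a lysosomal thiol reductase, fell by 0.46 ± 0.17 (edgeR adjusted p = 0.0389). Ctss, the protease that removes the invariant chain, rose by 0.70 ± 0.16 (edgeR adjusted p = 0.00329), and by 0.11 with the length and GC correction, which did not pass (adjusted p = 0.588). At week 70, 6 of 11 rose, 3 fell and 2 did not pass (6 higher and 5 lower once corrected). Ctss went from 6.14 ± 0.501 to 117 ± 25.1 CPM and Lgmn from 16.4 ± 0.96 to 162 ± 4.08. Ciita, the master regulator of class II transcription, went the other way, from 6.10 ± 0.815 to 1.28 ± 0.231 CPM (a fall of 2.34 ± 0.29, edgeR adjusted p = 2.73e-05), while the class II chains rose.

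C3, the central complement protein, was counted 20, 661 and 30 times in WT, 25, 28 and 20 in fetal KO, and 39 and 52 at week 70. A single library, WT replicate 2, carried 33.0 CPM, and the other 7 lay between 0.935 and 3.58. The difference at day 15, -3.03 ± 1.13 on the log2 scale (edgeR adjusted p = 0.0381), rested on it: without WT replicate 2 the difference was 0.25 (adjusted p = 0.557). The call was also lost without KO replicate 1, 2 or 3 (adjusted p = 0.0912, 0.0998 and 0.112) and with the length and GC correction (-2.61, adjusted p = 0.0722). A search made after these values were seen found 4 genes with at least 50 counts in WT replicate 2 and at least 5 times the CPM of any other library: Guca2b, Prap1, Cuzd1 and C3. Prap1 had 515 counts there and 1 to 13 in the other libraries. The same search gave 22 genes for WT replicate 1, 10 for WT replicate 3, 0 to 1 for the fetal KO libraries and 14 for each week 70 library. The cause of the C3 level in WT replicate 2 was not tested.

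C3 rose from fetal to week 70 KO by 1.02 ± 0.33 (2.03-fold, edgeR adjusted p = 0.0152), the smallest rise of the 10. That call was lost without KO day 15 replicate 3 or KO week 70 replicate 2 (adjusted p = 0.0506 and 0.0811), under upper-quartile scaling (0.0504), in DESeq2 (0.054) and with the length and GC correction (0.47, adjusted p = 0.194). In counts per kilobase, C3 was the least abundant of the 10 at week 70, with 0.598 CPM per kb against 11.4 for C4b.

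C4b, the mouse C4 that functions in the cascade, was counted 9, 15 and 4 times in WT, 3, 0 and 0 in fetal KO, and 833 and 1095 at week 70. Every fetal KO library lay at or below the floor of 3 counts and below every WT library in CPM (0 to 0.182 against 0.201 to 0.748). The mean WT level was 2.62-fold that floor. The WT counts were themselves low and can include reads of the related C4a (below), so this is no firm bound on the difference. The gene had too few counts at day 15 for the test with its filter; with no filter edgeR gave -2.88 (adjusted p = 0.018) and DESeq2 -2.97 (adjusted p = 0.0506). Week 70 was at least 374-fold above the fetal KO floor, and 7.12 ± 0.31 above fetal WT on the log2 scale (139-fold, edgeR adjusted p = 8.26e-07).

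C4a, which lies beside C4b and encodes the related sex-limited protein, showed the reverse. It was counted 135, 138 and 62 times in WT, 56, 72 and 69 in fetal KO, and 9 and 20 at week 70, a fall of 2.04 ± 0.39 on the log2 scale with age in KO (edgeR adjusted p = 0.000612). C4b made up 6.25%, 9.80% and 6.06% of the counts of the pair in WT, 5.08%, 0% and 0% in fetal KO, and 98.9% and 98.2% at week 70. The exact 95% binomial intervals reached at most 15.7% in the fetal libraries and were 98% to 99.5% and 97.2% to 98.9% at week 70. Of the 50-base windows of the longest C4b transcript, 35.2% recur in C4a, so counts of the lower partner in each group can include reads of the higher one.

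**Figure D2:**
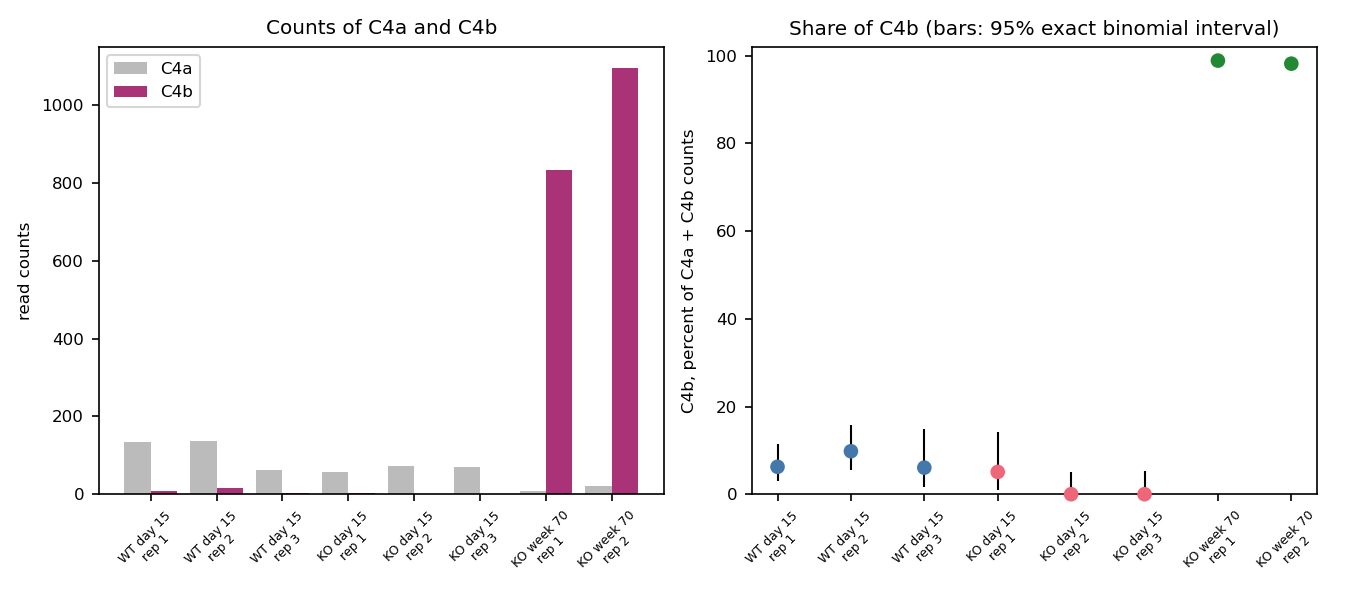
Left, read counts of C4a and C4b in each of the 8 libraries (bars). Right, C4b as a percent of both (points, with exact 95% binomial intervals that cover counting error only): at most 9.80% in the fetal libraries and 98.2% and 98.9% at week 70.

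The rest of the complement cascade did not move as one. Of 13 other components tested at day 15, 2 were higher in KO, 2 lower and 9 not called. Cfp, the alternative pathway stabiliser properdin, rose by 0.44 ± 0.08, Colec12, a collectin, fell by 0.87 ± 0.25, and Masp1, a lectin pathway protease, fell by 0.37 ± 0.06 on the log2 scale, with edgeR adjusted p of 0.00053, 0.0103 and 0.000364; Masp1 was at 0.06 with the length and GC correction. At week 70, 5 of 16 rose, 7 fell and 4 did not pass (median -0.39, against -0.19 over all genes). The C1q chains that open the classical branch were among those that rose: C1qa from 4.52 ± 0.297 to 80.6 ± 6.93 CPM (4.05 ± 0.12, edgeR adjusted p = 4.1e-10) and C1qb from 7.18 ± 0.248 to 84.1 ± 23.2 (3.45 ± 0.16, edgeR adjusted p = 1.21e-08). Cfp fell by 3.62 ± 0.15 (edgeR adjusted p = 5.81e-09).

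Complement regulators and receptors gave 4 higher, 10 lower and 3 not called of 17 at day 15 (median -0.45). With the length and GC correction these were 5 higher and 7 lower (median -0.19). Among genes with a mean of at least 50 counts, the largest falls were in Sez6l and Sez6l2, neuronal proteins with complement control domains, by 2.13 ± 0.07 and 1.92 ± 0.08 on the log2 scale, and in vitronectin (Vtn), by 1.85 ± 0.15, with edgeR adjusted p of 1.39e-08, 3.35e-08 and 1.59e-06; corrected, the 3 differences were -1.49, -1.27 and -1.68. At week 70, 10 of 19 rose, 5 fell and 4 did not pass. Clusterin (Clu), an astrocyte-secreted chaperone that blocks the terminal complex, went from 14.9 ± 1.57 to 1500.0 ± 95.8 CPM (6.55 ± 0.12, edgeR adjusted p = 6.59e-11). Vtn rose by 3.45 ± 0.15 and Sez6l2 by 3.20 ± 0.10 over fetal KO, so both stood lowest in fetal KO.

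Interferon and NF-kB signalling genes, the upstream arm, gave 3 higher, 12 lower and 5 not called of 20 at day 15, with a median of -0.34. Corrected for length and GC content, the counts were 6 higher and 5 lower and the median was -0.02. Tnfrsf1a, a TNF receptor, fell by 1.67 ± 0.20, the NF-kB subunit Rela by 0.87 ± 0.08 and the kinase Jak1 by 0.75 ± 0.06 on the log2 scale (edgeR adjusted p = 3.69e-05, 6.89e-06 and 2.62e-06; corrected differences -1.34, -0.32 and -0.38). Of 20 interferon-stimulated genes, 14 had enough counts to be tested at day 15. Among these, 1 was higher in fetal KO (Ifit2, 0.52 ± 0.13, edgeR adjusted p = 0.00471, and 0.14 corrected) and 13 did not pass. At week 70, 17 of 19 interferon-stimulated genes rose and 2 did not pass (median 2.84). Ifit3 rose by 4.83 ± 0.29, the GTPase Igtp by 4.33 ± 0.33 and Ifi27 by 4.19 ± 0.14, with edgeR adjusted p of at most 5.02e-07. Both Ifit3 and Igtp had 12 counts or fewer in each fetal KO library and entered this test through week 70 alone. The filter thus set the direction of these genes. Of the signalling genes 12 of 20 rose and 6 fell (median 0.73), against 9 higher and 8 lower with the correction (median 0.03). Irf1, a direct activator of class I genes, rose by 2.77 ± 0.33, Irf8 by 2.29 ± 0.28 and Tnfrsf1a by 2.27 ± 0.17 (edgeR adjusted p at most 2.17e-05).

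**Figure D3:**
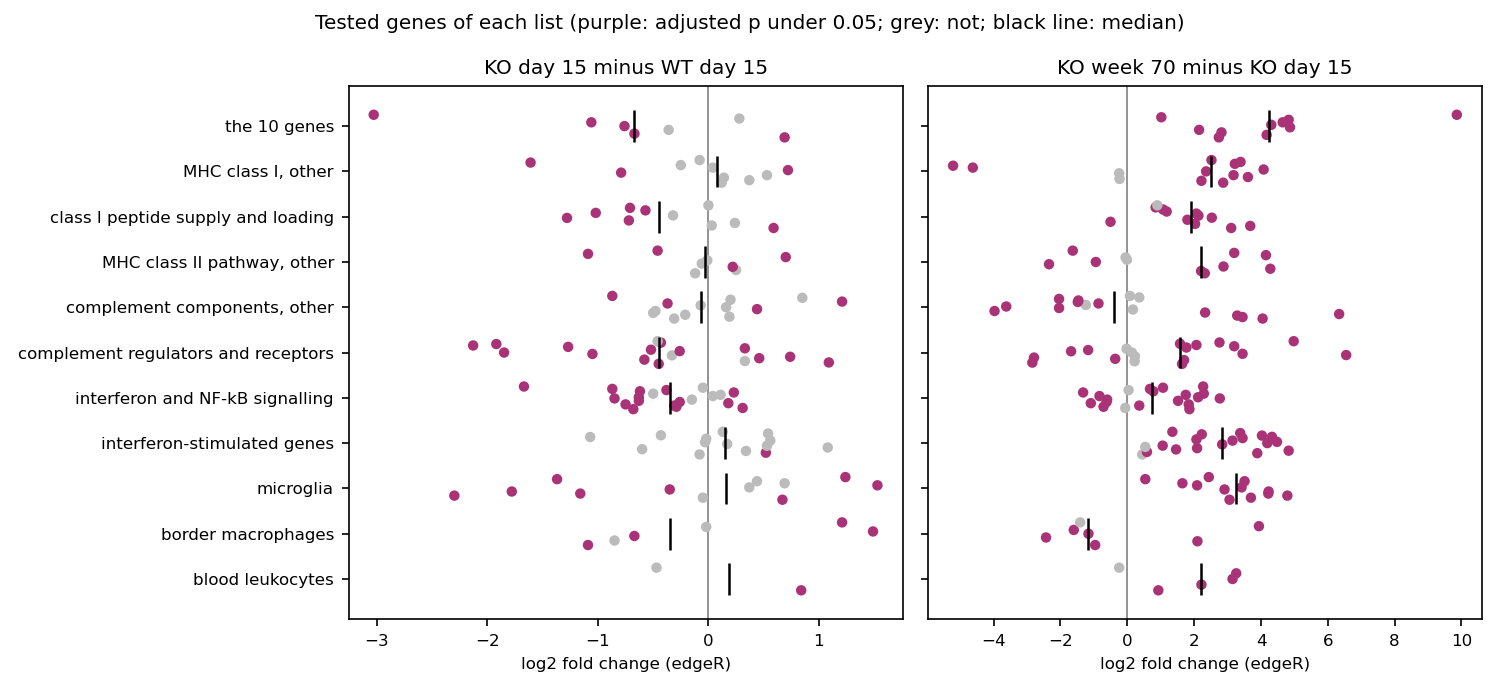
Log2 fold changes of the tested genes of each list in KO against WT at day 15 (left) and KO week 70 against KO day 15 (right); each point is a gene, purple where the edgeR adjusted p is under 0.05, and black lines are list medians. At week 70 the medians of the 10 genes (4.24), microglial markers (3.24) and interferon-stimulated genes (2.84) lie to the right. So do those of other class I genes (2.52), blood leukocytes (2.22), other class II genes (2.21), peptide supply (1.92), complement regulators (1.58) and signalling (0.73). The other complement components (-0.39) and border macrophages (-1.16) do not. Astrocyte (5.43) and oligodendrocyte (6.79) markers, with larger medians, are not drawn.

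Cell type markers also differed between the ages, not all in the direction of the 10 genes. At week 70, 12 of 12 microglial markers rose over fetal KO, with a summed CPM of 72.9 to 78 in fetal KO and 508 and 635 at week 70. Blood leukocyte markers were low but higher at week 70 (summed CPM 3.88 to 6.55 against 20 and 22.9; 4 of 5 tested rose, and Cd3e was at 0 in every fetal KO library), and border macrophage markers were lower (24.3 to 31.5 against 13.5 and 18.9; 2 of 7 rose and 4 fell). Oligodendrocyte markers rose furthest by list median (6.79, against 3.24 for microglia and 5.43 for astrocytes), with 7 of 7 higher and a summed CPM of 87 to 92.6 against 13300 and 13500. All 7 astrocyte markers rose (213 to 218 against 6680 and 7170), as did all 10 endothelial markers (72.1 to 84.6 against 385 and 421), while all 7 erythroid markers fell (3570 to 4380 against 491 and 778). The part of each of these cell types in the rise of the 10 genes was not tested.

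Between the fetal groups, markers moved in both directions. Erythroid markers were higher in KO, with a summed CPM of 957 to 1240 in WT and 3570 to 4380 in KO, 6 of 7 higher and 1 not called, also after the length and GC correction (6 higher). B2m, the gene of the 10 that was higher in fetal KO, differed by 0.71 (edgeR adjusted p = 0.00652) with haemoglobin and mitochondrially encoded genes left out. That setting changed the scaling alone and kept any B2m reads from blood cells, so it cannot address the erythroid difference. Endothelial markers were lower in KO (197 to 272 in WT against 72.1 to 84.6; 8 of 10 lower), as were those of fibroblasts and meninges (325 to 4470 against 75.9 to 148; 6 of 8 lower). Of pericyte and smooth muscle markers 5 of 7 were lower and 1 higher, though their sum moved little (141 to 188 against 130 to 140), and of astrocyte markers 4 of 7 were lower and 1 higher (443 to 505 against 213 to 218). Microglial markers were divided, with 3 of 12 higher (P2ry12, Tyrobp and Gpr34), 5 lower and 4 not called, a median of 0.16 and a corrected median of -0.36. Their summed CPM was 129 to 160 in WT and 72.9 to 78 in KO, in which Sall1 was the most abundant (71.5 ± 1.25 CPM in WT, 27.0 ± 3.22 in KO); without Sall1, singled out after its values were seen, the other 11 summed to 57.2 to 87.2 and 46.3 to 49.7. The part of these cell types in the fetal differences of the 10 genes was not tested.

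Set against fetal WT, the week 70 KO brains were higher in 9 of the 10 genes (of all genes tested 36.7% were higher and 41.9% lower), and the CPM of those 9 did not overlap, as for 86.4% of the genes tested. This comparison shares its week 70 libraries with the one above and adds genotype to age, and H2-Aa and C4b entered it through their week 70 counts alone. B2m was higher by 3.47 ± 0.22, H2-K1 by 3.55 ± 0.18, H2-D1 by 2.50 ± 0.24, Tap1 by 1.43 ± 0.31 and Tap2 by 3.86 ± 0.27 on the log2 scale. The class II genes were higher by 4.64 ± 0.39 (Cd74), 4.85 ± 0.50 (H2-Aa) and 3.61 ± 0.34 (H2-Ab1). The edgeR adjusted p was at most 0.00382 for these 8. C3 did not pass (-1.95 ± 1.45, edgeR adjusted p = 0.247); without WT replicate 2 it was higher at week 70 by 1.33 (adjusted p = 0.0277).

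In the order of levels per kilobase, B2m stood first in all 3 groups (13.9, 21.8 and 157 CPM per kb in WT, fetal KO and week 70 KO). H2-D1 was next in WT, fetal KO and week 70 (6.39, 4.83 and 36.5), followed by H2-K1 at week 70 (19.9) and in fetal KO (1.03). In WT, C3 (2.30) stood above H2-K1 (1.68) by its mean, which WT replicate 2 set. C4b stood above H2-Aa alone in WT (0.0802 against 0.0521) and last in fetal KO (0.0106), and at week 70 it followed H2-K1 (11.4). The remaining week 70 levels were 8.15 for Cd74, 3.11 for Tap2, 2.38 for H2-Ab1, 1.55 for H2-Aa and 1.03 for Tap1.

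As a description of likeness over the 8 libraries, the log2 CPM of each gene with a mean of at least 50 counts, centred on its own mean, was compared with 12816 other genes by root mean square difference. The nearest to B2m were Selenom (0.159) and S100a16 (0.184), to H2-K1 Adcy1 (0.21) and Ephx1 (0.214), to H2-D1 Ccdc149 (0.151) and Nefl (0.164), and to Tap2 Pgam1 (0.143) and Itm2c (0.165). Gpr62 (0.358) and Slc25a34 (0.387) were nearest to Cd74. C4b had Phyhip (0.573) and Adra1d (0.612), more distant than the nearest genes of the others apart from C3; Adra1d had 4, 0 and 0 counts in fetal KO and 638 and 872 at week 70. C3 had no near neighbour: Prap1 stood at 1 and Napsa at 1.27. Tap1, H2-Aa and H2-Ab1 had fewer counts and were not compared.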

How the data were processed

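RNA of 8 whole brains was sequenced after poly-T selection and random-hexamer priming, per the labels' protocols. The authors deposited raw read counts per gene; the submitters' processing notes name FastQC, cutadapt, Trimmomatic, HISAT2, featureCounts and edgeR, and the builds GRCm38 and GRCm39. Annotation, strand and treatment of reads fitting several genes are not given in the sources used here. Of 34299 genes, 351 had no symbol, and all 8 sample columns matched a label.

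Each pair of groups was fitted on its own libraries in edgeR 4.0.16 (R 4.3.3): filterByExpr, TMM scaling, quasi-likelihood test and Benjamini-Hochberg adjustment over all genes tested at 0.05, tried on simulated counts first. Printed CPM use TMM over all 8 libraries, with a floor of 3 counts per library. Replicates differed beyond sampling noise. Alternatives were other scaling (upper-quartile, RLE), other filters (none, or a mean of at least 10 counts), DESeq2 1.42.0, one fit of all libraries, leaving out haemoglobin and mitochondrially encoded genes, a smooth correction for length and GC content (mgcv 1.9.3; 97.3% of genes had both values in GENCODE M21), a replicate block, and leaving out each library. Replicate numbers gave no pairing.

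The 10 genes and all gene lists were chosen with earlier results of these data known. Named from each list were the 3 genes with the largest called change, a mean of at least 50 counts and no overlap between groups, plus relatives of class I and C4, Cav1 as the target, and markers where a result turns on them. Guca2b, Prap1 and Cuzd1 were chosen after their values were seen. RefSeq promoters matched 6 of the 10 genes.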

Additional observations from a re-analysis of the deposited data

How the results depend on the processing

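At day 15, 5 of the 7 tested genes passed, against 62.6% of all genes. Under upper-quartile scaling 2 did, against 65.5% of all genes. In DESeq2, which gave C3 no adjusted p, it was 2, against 10744 of 33334 genes. With the replicate block it was 2, against 11184 of 19147. It was 0 with the length and GC correction (53.5% of all genes) and 0 with that correction and the block (9399 of 19050). It was 6 of 10 tested with no filter (1 higher, 5 lower), against 11997 of 33334 genes. One fit of all 8 libraries gave 7 of 10 (1 higher, 6 lower), against 11164 of 21263. The remaining settings gave 4 or 5, against 11815 to 11987 genes called over all. With the correction alone, 2 of the 7 had an unadjusted edgeR p under 0.05. Leaving out each library gave 1 to 4, against 10998 (of 20015) to 11365 (of 19543) genes called over all. Signs reversed for B2m with the correction (-0.46) and with correction and block (-0.42), for Cd74 without WT replicate 3 (-0.067, with 0.74 the highest on leaving out a library), and for C3 without WT replicate 2 (0.25 at day 15, from -3.59; 1.33 for week 70 against WT, from -2.51). Of 109 single-gene values at day 15 under alternatives, 73 kept direction and side of the threshold, 31 lost the call and 1 gained it; of 150 between the ages 142 did and 8 lost it (all C3), and of 150 for week 70 against WT 149 did. Counts of called genes over the whole table stayed within 1.5 times of the reported ones. Equal replicate numbers did not pair the samples: at day 15 their deviations correlated at -0.155, -0.211 and -0.184 over 18967 genes. With week 70 the block can use replicates 1 and 2 alone. Chosen after seeing the data, the list counts were repeated without WT replicate 1, WT replicate 2 and week 70 replicate 2. The called count moved by over 1.5 times in the other class II genes (4 to 2 without either WT library) and in the interferon-stimulated genes (1 to 2 without WT replicate 2), both at day 15. Fetal counts of the class II genes, C4b and Tap2, at 22 or fewer per library, limit what could be detected at day 15.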
